A study of Mus musculus with 24 samples.

Results

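The expression of 10 genes tied to the lysosome of the macrophage was followed in mouse spleen after total body irradiation: Gpnmb, Cd68, Ctsb, Ctsd, Ctsk, Ctsl, Lgmn, Lamp1, Lamp2 and Atp6v0d2. The members were all spots, other than control spots, whose gene name in the scanner files was one of these symbols, which gave 10 of the 36413 gene names and 13 of the 55681 probes on the array. All 13 probes passed the filter on dim probes, which kept 42307 probes in all. Ctsd, Lamp2 and Atp6v0d2 had 2 probes each and the other members had 1.

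The series held 24 one-colour microarrays of spleen RNA from 2 strains of mice, BALB.K and B10.BR, both of which carry the k haplotype of the major histocompatibility complex. BALB.K mice were left resting (0 cGy) or were irradiated with 300, 400 or 800 cGy, and B10.BR mice were left resting or were irradiated with 300, 500 or 900 cGy. Spleens were taken 24 h after irradiation, and the highest dose of each strain, 800 cGy for BALB.K and 900 cGy for B10.BR, was the one given as myeloablative. Each of the 8 groups had 3 arrays, and the RNA of each array was pooled from 3 mice, so p-values measure the spread between pools and not between single mice. No other treatment or genetic alteration is named in the labels, and age and sex are not given in the sources used here. The RNA came from whole homogenised splenocytes, so fewer cells of a type and less RNA per cell of that type cannot be told apart in any value below.

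The lysosome is the acidic compartment in which macrophages break down what they take up, including dead cells. Its lumen is kept acidic by the V-ATPase, a proton pump to which Atp6v0d2 contributes a subunit, and is lined by the heavily glycosylated membrane proteins encoded by Lamp1 and Lamp2. Cathepsins B, K and L (Ctsb, Ctsk, Ctsl) are cysteine proteases of the lumen, cathepsin D (Ctsd) is an aspartic protease, and legumain (Lgmn) is an asparaginyl endopeptidase that also processes cathepsins. Cd68 is a LAMP family protein of the endosomes and lysosomes of macrophages, and Gpnmb is a transmembrane glycoprotein of melanosomes and lysosomes that is made by macrophages loaded with lipid or debris. Many lysosomal genes are targets of the MiT/TFE transcription factors (TFEB, TFE3, MITF and TFEC), which bind E-boxes of the form TCACGTG. In spleen, macrophages of the red pulp clear aged red cells.

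The proximal promoters of the members were read for such sites. RefSeq sequences of 250 bases before to 50 bases after the start site, on GRCm38.p6, were at hand for 8 of the 10 members. TCACGTG, searched on both strands with its reverse complement CACGTGA, was present in 3 of these members: Lamp1 with 4 sites, Ctsd with 2 and Lgmn with 1. Lgmn has 2 promoters in this table, and the site lies in the downstream one (chr12:102439043-102439342), while the other (chr12:102439679-102439978) holds none. Of all 32851 promoters of the same length, 3.77% held it and 1.11% held 2 or more matches. TGACTCA, the AP-1 site, searched with its reverse complement TGAGTCA, was present in 2 members, Cd68 with 2 sites and Gpnmb with 1 that began at base 9 after the start, against 5.2% of all promoters, 0.222% with 2 or more matches. The longer palindromic CLEAR element, which contains this E-box, was found in 0.326% of promoters, TCATGTG, the M-box, in 3.77%, and GAGGAAGT, the PU.1 site, in 3.2%. None of these 3 matched a member's promoter in this window. The 250 bases upstream of the start are shown for the 3 members with more than 1 site, with the matched letters in capitals: Lamp1 at chr8:13158911-13159160, plus strand, Ctsd at chr7:142387828-142388077, minus strand, and Cd68 at chr11:69666171-69666420, minus strand, all on GRCm38.p6 and 5′ to 3′ on the gene's strand.
Lamp1: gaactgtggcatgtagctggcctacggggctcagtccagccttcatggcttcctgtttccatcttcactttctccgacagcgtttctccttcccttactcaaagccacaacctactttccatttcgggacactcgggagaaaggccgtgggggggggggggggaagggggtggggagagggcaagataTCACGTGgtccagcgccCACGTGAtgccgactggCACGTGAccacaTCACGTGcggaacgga
Ctsd: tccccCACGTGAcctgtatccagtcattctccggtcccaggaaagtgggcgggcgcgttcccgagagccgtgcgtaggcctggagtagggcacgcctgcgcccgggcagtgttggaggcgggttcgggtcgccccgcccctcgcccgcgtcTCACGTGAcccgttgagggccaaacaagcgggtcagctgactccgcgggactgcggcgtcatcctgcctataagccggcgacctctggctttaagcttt
Cd68: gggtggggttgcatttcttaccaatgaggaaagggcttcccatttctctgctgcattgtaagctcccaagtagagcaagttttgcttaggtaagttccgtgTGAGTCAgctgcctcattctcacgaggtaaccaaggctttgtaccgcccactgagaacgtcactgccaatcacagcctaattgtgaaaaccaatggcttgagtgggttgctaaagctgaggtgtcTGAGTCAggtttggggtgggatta
The Lamp1 sites began 62, 45, 28 and 16 bases before the start. The Ctsd sites began 245 and 99 bases before it, and the nearer of them was palindromic. The Cd68 sites began 149 and 24 bases before the start. A match of letters is a description of the sequence, and no binding was measured.

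The sequences of 3 probes are shown because their genes were each read by another probe as well, with no base marked. Whether the stretch of transcript read accounts for differences between probes was not tested. The second probe of Ctsd spans chr7:149566847-149568505 on mm9 (minus strand), 1659 bases of genome for 60 bases of probe. The second probe of Lamp2, at chrX:35777505-35777564 (mm9, minus strand), belongs to another transcript record than the first. The brighter probe of Atp6v0d2 lies at chr4:19805367-19805426 (mm9, minus strand).
Ctsd second probe: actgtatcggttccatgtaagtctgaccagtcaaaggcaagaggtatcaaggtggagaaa
Lamp2 second probe: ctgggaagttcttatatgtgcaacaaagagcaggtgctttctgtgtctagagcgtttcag
Atp6v0d2 brighter probe: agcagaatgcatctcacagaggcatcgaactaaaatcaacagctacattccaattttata
The Gpnmb probe lies at chr6:49006386-49006445 on the plus strand of mm9, and the single probes of Cd68 and Lamp1 at chr11:69478979-69479038 (minus) and chr8:13175277-13175336 (plus). The first probes of Ctsd and Lamp2 lie at chr7:149561962-149562021 and chrX:35772774-35772833, both minus. The other cathepsin probes lie at chr14:63761906-63761965 for Ctsb (plus), chr3:95313165-95313224 for Ctsk (plus) and chr13:64465287-64465346 for Ctsl (minus). The Lgmn probe lies at chr12:103632415-103632474 and the dimmer Atp6v0d2 probe at chr4:19804304-19804363, both minus. Exons were not assigned to these positions.

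The arrays had 75th percentiles of signal between 830.3 and 1235, and 66.9% to 76.9% of spots were well above background. Their number, 3 per group, limits the precision. Levels below are log2 signal relative to the array's own 75th percentile, so a value of 0 means a signal equal to that percentile, and they are compared for 1 probe at a time, since probes differ in brightness. A test passed where the p-value of limma's moderated test, adjusted by the method of Benjamini and Hochberg over the 42307 probes of a comparison, was below 0.05. A pair of features of the samples moved with the groups. Signal from Y-linked genes was present on all 12 B10.BR arrays and all 3 BALB.K arrays at 800 cGy but on only 1 of 3 in each of the other BALB.K groups. The summed signal of exocrine pancreas genes was 0.00083% to 0.00346% of all signal in unirradiated B10.BR and 0.575% to 0.811% at 900 cGy. In BALB.K it was 0.00512% to 0.134% unirradiated and 0.202% to 0.804% at 800 cGy. The arrays lay on 3 slides of 8, and B10.BR at 0 and 300 cGy shared a slide. In contrast, BALB.K at 400 and 800 cGy and B10.BR at 900 cGy lay on a different slide from their unirradiated group. So did 2 arrays of BALB.K at 300 cGy and 1 array of B10.BR at 500 cGy.

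Gpnmb rose after every dose in both strains. Its change was the largest of the members at every dose with the scaling used here, a rank that in BALB.K did not hold under another background correction (below). In unirradiated BALB.K spleen its level was -5.70, -7.61 and -7.51 on the 3 arrays, and only the first of these was well above background. It was -2.94, -3.12 and -2.75 at 300 cGy, -2.19, -1.40 and -2.30 at 400 cGy and -2.46, -2.74 and -2.63 at 800 cGy. All 9 irradiated BALB.K arrays lay above all 3 unirradiated ones. In B10.BR the level was -3.88, -3.96 and -4.06 without irradiation and 1.12, 0.98 and 1.39 at 300 cGy. It was 1.20, 1.40 and 1.63 at 500 cGy and 0.82, 0.99 and 0.96 at 900 cGy. The irradiated B10.BR arrays were therefore the only ones on which this probe was brighter than the 75th percentile.

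In BALB.K the log2 change of Gpnmb against 0 cGy was 4.0 ± 0.34 (SE, n = 3 against 3) at 300 cGy, 4.97 at 400 cGy and 4.33 at 800 cGy, or 16-fold, 31.4-fold and 20.1-fold (limma, adjusted p = 3e-08, 1.19e-09 and 4.23e-09). In B10.BR it was 5.13 at 300 cGy, 5.38 at 500 cGy and 4.89 at 900 cGy, with the same standard error, or 35.1-fold, 41.6-fold and 29.6-fold (limma, adjusted p = 2.88e-09, 6.97e-10 and 1.01e-09). At 500 cGy in B10.BR 0 of the 42307 probes had a larger rise, and at 300 cGy 39 did. The size of the BALB.K change rested on values near or below background in the unirradiated group. Without the 1 unirradiated BALB.K array on which Gpnmb was measured, the changes were 4.62, 5.59 and 4.95. With normexp background correction, which lifts dim signals, they were 1.34, 2.08 and 1.51. Those of Ctsl were then 2.0, 2.13 and 2.24, so that Gpnmb no longer had the largest change in BALB.K. The Ctsl changes rest in part on an unirradiated array far below the others, and normexp without that array was not run. At 800 cGy Cd68, with changes of at least 2.32 over the alternative settings, also exceeded the 1.51 of Gpnmb. In B10.BR the Gpnmb changes with normexp were 4.21, 4.43 and 3.97. The test was passed in each case. Slide and group overlapped in part: on slide 1 the B10.BR change at 300 cGy was 5.13, and on slide 2 the 1 BALB.K array at 300 cGy stood 3.99 above the 3 unirradiated ones. With the slide as a block the 6 changes were 3.99, 4.96, 4.32, 5.13, 5.27 and 4.56.

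**Figure D1:**
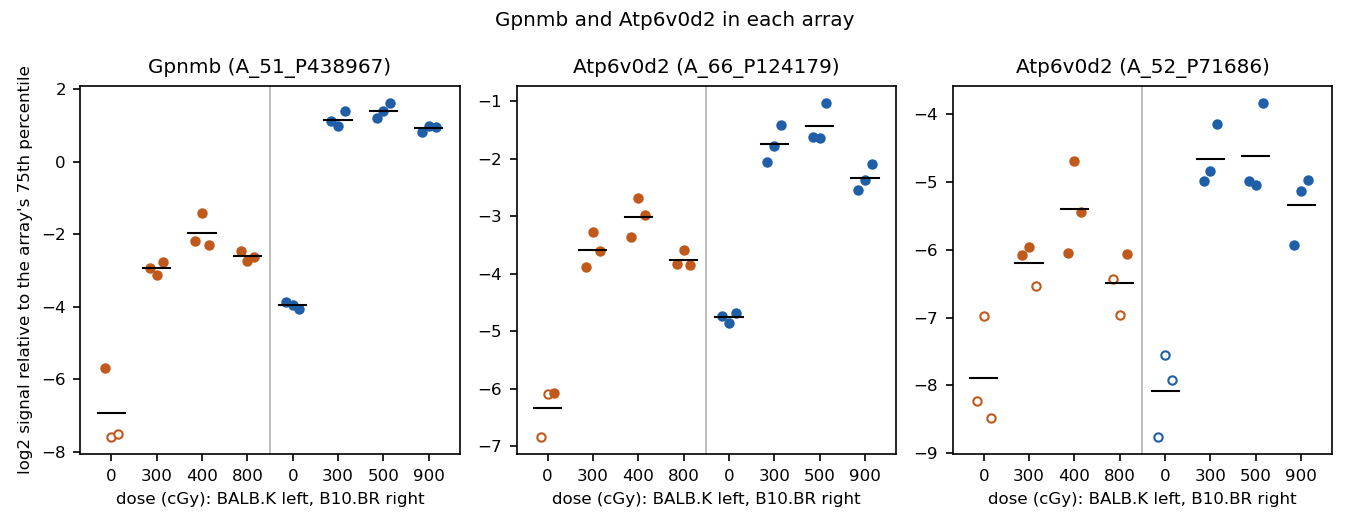
Level of Gpnmb and of both Atp6v0d2 probes on each of the 24 arrays, in log2 signal relative to the array's 75th percentile (y axis), by strain and dose in cGy (x axis, BALB.K orange and B10.BR blue); each point is 1 array, an open point was not well above background, and the line is the group mean. Gpnmb lies between -7.61 and -5.70 in unirradiated BALB.K and between -4.06 and -3.88 in unirradiated B10.BR, below every irradiated group of its strain.

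Atp6v0d2, the macrophage and osteoclast form of the d subunit of the V-ATPase, had the next largest change at the lower doses, and at 800 and 900 cGy Cd68 changed slightly more. Its brighter probe read -6.84, -6.09 and -6.08 in unirradiated BALB.K, where 1 of 3 arrays was well above background. It read -3.88, -3.27 and -3.61 at 300 cGy, -3.36, -2.69 and -2.97 at 400 cGy and -3.82, -3.59 and -3.85 at 800 cGy. The arrays at 300 cGy overlapped those at 400 and at 800 cGy, those at 800 lay below those at 400 cGy, and none overlapped the unirradiated group. On the B10.BR arrays it read -4.74, -4.86 and -4.68 unirradiated, -2.06, -1.78 and -1.42 at 300 cGy, -1.63, -1.65 and -1.03 at 500 cGy and -2.54, -2.37 and -2.10 at 900 cGy. The 900 cGy arrays lay below those at 300 and 500 cGy and above the unirradiated ones. The log2 changes against 0 cGy were 2.75, 3.33 and 2.58 in BALB.K and 3.00, 3.32 and 2.42 in B10.BR (SE 0.23), which is 6.73-fold, 10.1-fold and 6-fold, then 8.02-fold, 10-fold and 5.36-fold (limma, adjusted p from 1.44e-09 to 6.35e-08). These folds too rest on dim unirradiated signals. With normexp background correction the log2 changes were 0.85, 1.23 and 0.72 in BALB.K and 1.84, 2.12 and 1.37 in B10.BR, and passed. The dimmer probe was not well above background on any unirradiated array of either strain, so its change has only a lower bound, set by the lowest signals well above background on those arrays. It was at least 1.54-fold higher at 400 cGy in BALB.K and at least 3.44-fold, 3.52-fold and 2.14-fold higher at 300, 500 and 900 cGy in B10.BR. In BALB.K only 2 of 3 arrays at 300 cGy and 1 of 3 at 800 cGy measured it, and no fold is given there.

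Cd68 rose in both strains, and in BALB.K it was one of the few members that rose further at 800 cGy. The unirradiated BALB.K arrays read -2.39, -2.07 and -2.30. The irradiated ones read -0.82, -1.30 and -0.83 at 300 cGy, -0.64, -0.57 and -0.79 at 400 cGy and 0.42, 0.48 and 0.30 at 800 cGy. No BALB.K dose group overlapped another. In B10.BR the unirradiated arrays read -2.04, -2.21 and -2.92 and the irradiated ones lay between -0.48 and 0.34, with the 3 dose groups overlapping. The changes against 0 cGy were 2.41-fold, 3-fold and 6.3-fold in BALB.K and 4.44-fold, 4.55-fold and 5.51-fold in B10.BR (SE 0.20 on the log2 scale; limma, adjusted p from 2.78e-09 to 5.35e-05).

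The proteases of the lumen rose in every comparison with 0 cGy but 1 (Ctsl at 300 cGy in B10.BR), by less than Gpnmb. Ctsd, the aspartic protease, read 4.95, 5.19 and 5.14 in unirradiated BALB.K with its brighter probe, and 6.28 to 6.91 on the 9 irradiated arrays. B10.BR spleens gave 5.41, 5.33 and 5.48 unirradiated and 7.0 to 7.44 irradiated. The groups with and without irradiation were well apart in both strains. The log2 changes were 1.25, 1.56 and 1.67 in BALB.K and 1.67, 1.91 and 1.86 in B10.BR (SE 0.11; limma, adjusted p from 9.83e-11 to 3.48e-08).

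The second Ctsd probe, whose sequence is shown above, differed from the first in how its signal ran with dose. In BALB.K it read -0.89, -0.90 and -1.05 unirradiated and 0.23, -1.17 and -0.48 at 300 cGy, so that those groups overlapped. It read 0.50, -0.06 and -0.42 at 400 cGy and 1.78, 1.91 and 1.91 at 800 cGy. In B10.BR it already read 1.45, 1.41 and 2.35 at 300 cGy, against -0.48, -0.77 and -1.17 unirradiated. Its log2 changes were 0.47 at 300 cGy in BALB.K (SE 0.30; limma, adjusted p = 0.216, not passed), 0.95 at 400 cGy and 2.81 at 800 cGy, and 2.54, 2.48 and 2.64 in B10.BR. The step from 400 to 800 cGy in BALB.K was 1.86 for this probe (limma, adjusted p = 0.000416) and 0.11 for the brighter one (adjusted p = 0.534). The highest BALB.K arrays at 300 cGy (0.23) and 400 cGy (0.50) were those with Y-linked signal, which every array at 800 cGy and every B10.BR array carried. The unirradiated BALB.K array that carried it read -0.89, close to the others. The part of this difference between arrays in the step was not tested.

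Ctsb, a cysteine protease, was among the members with the smallest changes in BALB.K. In B10.BR at 300 cGy its change exceeded those of Lamp1, Ctsl, Lamp2 and Lgmn. It read 6.59, 6.93 and 6.59 in unirradiated BALB.K and 7.28 to 7.54 after irradiation. In B10.BR it read 6.35, 6.22 and 6.17 unirradiated and 7.26 to 7.54 after irradiation. The irradiated levels covered nearly the same range in both strains, and the unirradiated levels did not overlap. The log2 changes were 0.65, 0.77 and 0.76 in BALB.K and 1.11, 1.20 and 1.20 in B10.BR (SE 0.10).

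Ctsk, a collagen-degrading cysteine protease best known from osteoclasts, read -0.05, 0.02 and 0.02 in unirradiated BALB.K. It read 1.31 to 1.42 at 300 cGy, 1.46 to 1.48 at 400 cGy and 1.78, 2.06 and 2.04 at 800 cGy. Each dose group lay above the one before it. On the B10.BR arrays it read 0.33, 0.31 and 0.39 unirradiated, 1.72, 1.42 and 1.33 at 300 cGy, 1.97, 1.88 and 1.74 at 500 cGy and 2.01, 2.08 and 1.97 at 900 cGy. The log2 changes ran from 1.36 to 1.96 in BALB.K and from 1.15 to 1.68 in B10.BR (SE 0.10).

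Ctsl, a cysteine protease of broad expression, was the member with the widest spread. In unirradiated BALB.K it read 4.41, 1.54 and 4.64, the second array standing far below the other 2, and 5.44 to 5.92 after irradiation. B10.BR spleens gave 4.63, 4.49 and 4.52 unirradiated and 4.73, 5.41 and 5.51 at 300 cGy, where the first array stood below the others. The log2 changes in BALB.K were 1.98, 2.17 and 2.31 (SE 0.49; limma, adjusted p = 0.00297, 0.00115 and 0.000511), and without the low unirradiated array they were 0.98, 1.18 and 1.32 and passed. With only the pair of groups compared in the fit, the BALB.K calls were lost (adjusted p = 0.131, 0.0811 and 0.0599), and with the slide as a fixed block those at 400 and 800 cGy were (adjusted p = 0.0811 and 0.056). In B10.BR the changes were 0.67 at 300 cGy (adjusted p = 0.317, the only change of a member against 0 cGy that did not pass), 1.23 at 500 cGy (0.0468) and 1.36 at 900 cGy (0.0259). The SE of 0.49 is shared by both strains in this fit. With only the pair of groups compared in the fit, the limma adjusted p in B10.BR was 0.0622 at 300 cGy, 0.000421 at 500 cGy and 0.000221 at 900 cGy. With the authors' deposited matrix it was 0.0154, 0.000283 and 0.000112. In the fit of all groups, the call at 500 cGy was lost whenever any 1 of the 6 arrays compared was left out. That at 900 cGy was lost in 4 of 6 such fits. The call at 900 cGy was also lost with the slide as a fixed block (adjusted p = 0.249) or a random block (0.0558) and with the exocrine share as a covariate (0.129), and that at 500 cGy with each of these as well.

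Lgmn, which encodes legumain, read 4.31, 4.44 and 4.52 in unirradiated BALB.K and 5.66 to 6.37 after irradiation. In B10.BR it read 5.48, 5.40 and 5.58 unirradiated and 6.27 to 6.87 after irradiation. The unirradiated B10.BR arrays stood above the unirradiated BALB.K ones. The log2 changes were 1.44, 1.75 and 1.78 in BALB.K and 0.88, 1.15 and 1.25 in B10.BR (SE 0.11; limma, adjusted p from 1.55e-10 to 4.68e-06).

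The 2 LAMP proteins of the lysosomal membrane rose in every comparison with 0 cGy. Lamp1 read 6.05, 6.40 and 6.27 in unirradiated BALB.K and 6.78 to 7.31 after irradiation. On the B10.BR arrays it read 6.30, 6.33 and 6.46 unirradiated and 6.96 to 7.28 after irradiation. Its log2 changes were 0.59, 0.74 and 0.95 in BALB.K and 0.63, 0.77 and 0.83 in B10.BR (SE 0.10; limma, adjusted p from 1.12e-07 to 6.72e-05). No irradiated array overlapped the unirradiated arrays of its strain.

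Lamp2 was read by probes from 2 transcript records. With the first probe it read 3.20, 3.40 and 3.59 in unirradiated BALB.K and 4.25 to 4.83 after irradiation. With that probe it read 3.71, 3.48 and 3.72 in unirradiated B10.BR and 4.43 to 4.96 after irradiation. The log2 changes of the first probe were 1.06, 0.99 and 1.34 in BALB.K and 0.84, 1.12 and 1.20 in B10.BR. Those of the second probe were 0.80, 1.05 and 1.12 in BALB.K and 1.03, 1.20 and 1.35 in B10.BR (SE 0.11 for each). Both probes passed in all 6 comparisons.

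**Figure D2:**
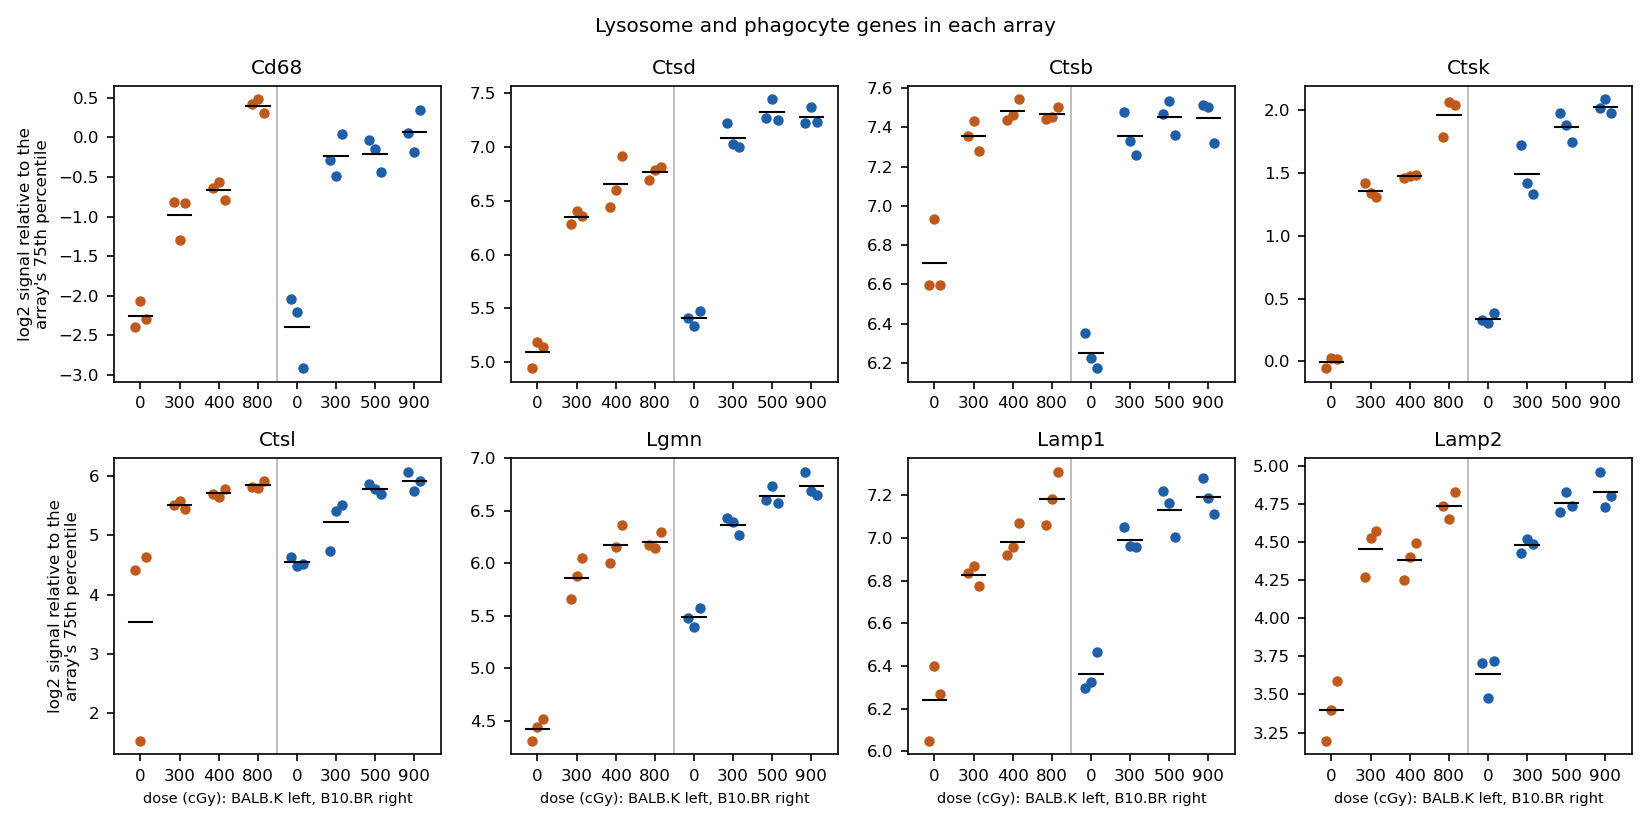
Level of the other 8 members on each of the 24 arrays, in log2 signal relative to the array's 75th percentile (y axis), by strain and dose in cGy (x axis, BALB.K orange and B10.BR blue); points are arrays, open where not well above background, and lines are group means. The low Ctsl array at 1.54 stands apart in the unirradiated BALB.K group, and each gene's irradiated arrays lie above the unirradiated arrays of the same strain.

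**Figure D3:**
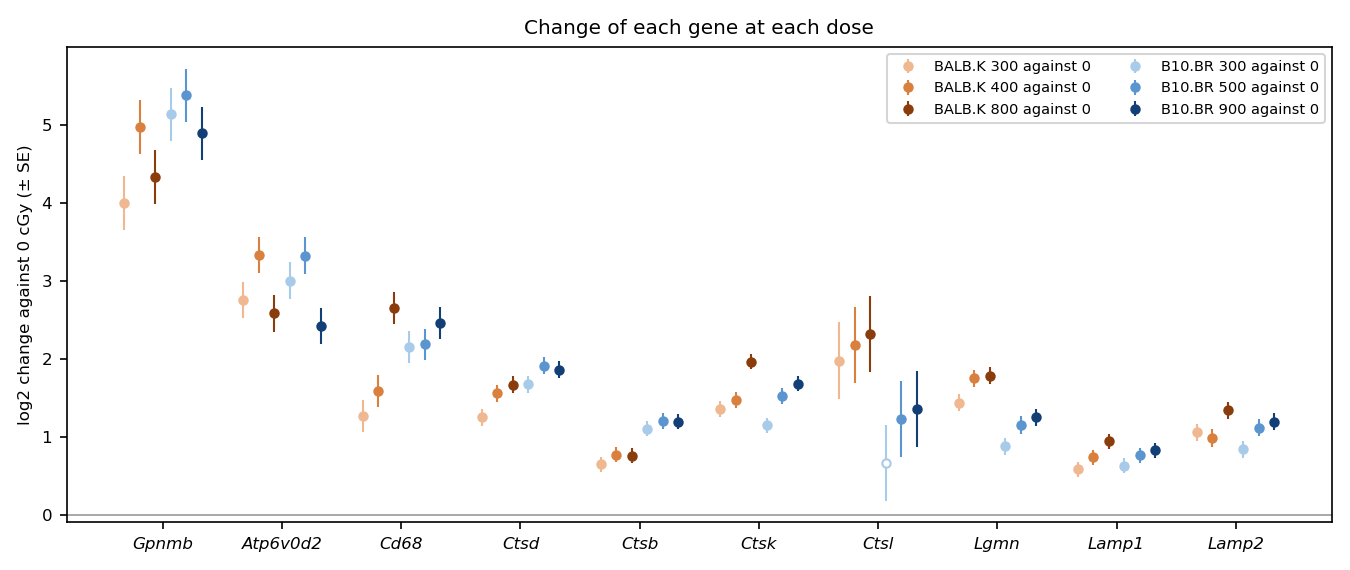
Log2 change against 0 cGy (y axis) with its standard error for each of the 10 genes (x axis) at each dose of each strain; filled points passed the test. Gpnmb is highest, from 4.0 to 5.38, Lamp1 lies between 0.59 and 0.95, and the 1 open point is Ctsl at 300 cGy in B10.BR.

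Counted together, 10 of the 10 members were higher and passed in 5 of the 6 comparisons with 0 cGy, and 9 of 10 in B10.BR at 300 cGy. Among all probes tested the share that was higher and passed was 18.6% at 300 cGy, 24.1% at 400 cGy and 27.8% at 800 cGy in BALB.K. In B10.BR it was 17.4% at 300 cGy, 20.3% at 500 cGy and 24.3% at 900 cGy. All 10 members had groups that did not overlap in every one of these comparisons, whereas 19.3%, 27.7% and 32.0% of all probes did so in the higher direction in BALB.K and 21.7%, 24.5% and 29.7% in B10.BR. The median log2 change of the members was 1.31, 1.57 and 1.87 in BALB.K and 1.13, 1.38 and 1.52 in B10.BR, and that of all probes tested lay between -0.13 and 0.08. Passing in the higher direction in all 6 comparisons was found for 9 of the 10 members and for 11.2% of all probes. By probe, 76 of 78 tests passed. These include the dimmer Atp6v0d2 probe, which was kept by the filter on dim probes only through irradiated groups, so its passes are no separate result. The members were chosen with earlier results of these data known, and the 3 doses of a strain share their unirradiated arrays, so the counts are a description. Scaling the arrays to their spike-in controls in place of the 75th percentile moved the median of all probes by up to 0.41 at 900 cGy in B10.BR and took the higher share of all calls there from 47.8% to 80.9%. Every member's test against 0 cGy fell on the same side of the threshold under it.

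Between neighbouring doses few members passed, except from 400 to 800 cGy in BALB.K. From 300 to 400 cGy in BALB.K 0 of 10 passed by limma, against 3.67% of all probes, which does not show that the levels were equal. Gpnmb stood 0.97 higher there (adjusted p = 0.112) and its groups did not overlap. From 300 to 500 cGy in B10.BR 0 of 10 passed by limma, against 1.12% of all probes, which again does not show equal levels. Ctsk stood 0.38 higher there (adjusted p = 0.0696). From 400 to 800 cGy in BALB.K 3 members rose and 1 fell, against 7.99% and 9.69% of all probes. Cd68 rose by 1.07 (limma, adjusted p = 0.00156), Ctsk by 0.49 (0.00217) and Lamp2 by 0.36 (0.0322), while Atp6v0d2 fell by 0.75 (0.0331). The calls of Lamp2 and Atp6v0d2 were each lost in 5 of the 6 fits with 1 array left out. From 500 to 900 cGy in B10.BR Atp6v0d2 fell by 0.90 (limma, adjusted p = 0.0397) and no other member passed, against 2.41% of all probes in that direction. That call was lost when any 1 of the 6 arrays was left out. Gpnmb stood 0.64 lower at 800 than at 400 cGy in BALB.K (adjusted p = 0.213) and 0.49 lower at 900 than at 500 cGy in B10.BR, neither of which passed.

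**Figure D4:**
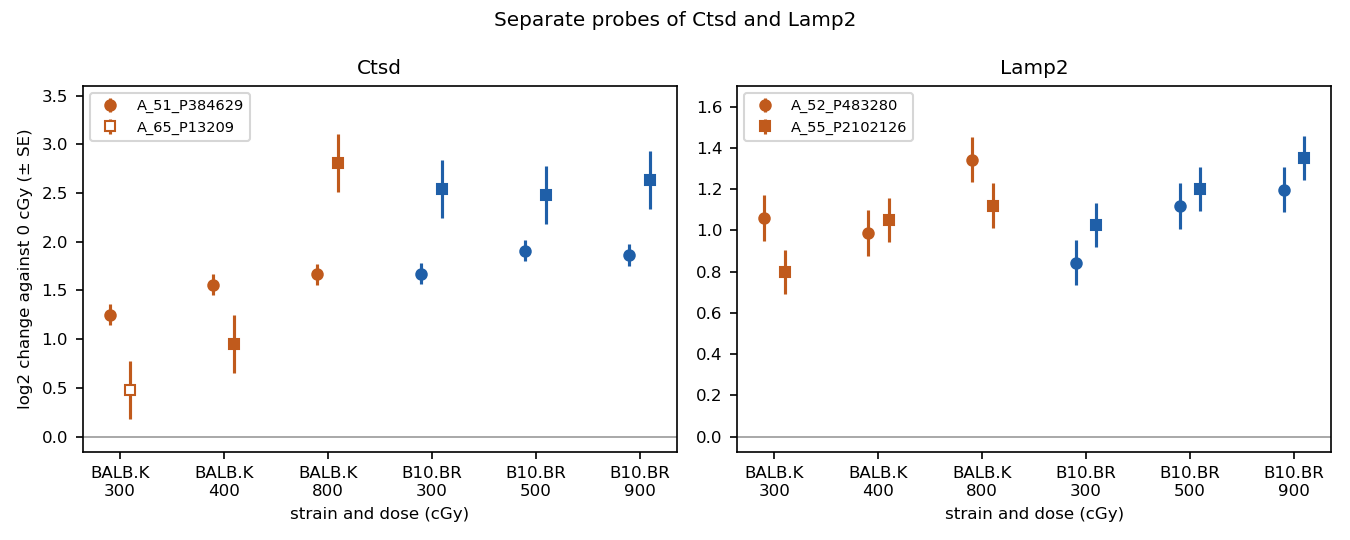
Log2 change against 0 cGy with its standard error (y axis) for the 2 probes of Ctsd and the 2 probes of Lamp2 at each dose (x axis) of each strain; circles are the first probe, squares the second, and open symbols did not pass. The second Ctsd probe goes from 0.47 at 300 cGy to 2.81 at 800 cGy in BALB.K but lies between 2.48 and 2.64 in B10.BR, while the changes of the Lamp2 probes lie between 0.80 and 1.35 in both strains.

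The strains differed before irradiation in 6 of the 10 members. Of all probes, 21.2% were higher and 29.8% lower in unirradiated B10.BR, so a count of 6 does not by itself set apart the members. B10.BR was higher in 5, against 21.2% of all probes: Gpnmb by 2.97 ± 0.34 (7.84-fold; limma, adjusted p = 1.46e-06), Atp6v0d2 by 1.58, Lgmn by 1.06, Ctsk by 0.34 and Ctsd by 0.32. Gpnmb was measured on 1 of 3 unirradiated BALB.K arrays, and with normexp background correction the difference was 0.73, while that of Atp6v0d2 was 0.33 and did not pass (adjusted p = 0.0699). With spike-in scaling the signs for Ctsd and Ctsk turned, to -0.42 and -0.39. Ctsb was lower in unirradiated B10.BR, by 0.46, against 29.8% of all probes in that direction. The second Lamp2 probe was also lower, at -0.40 (adjusted p = 0.00485), whereas the first stood at 0.24 (adjusted p = 0.0786). All 3 unirradiated B10.BR arrays lay on another slide than the 3 of BALB.K, and Y-linked signal was present on 3 and 1 of them. With the slide as a fixed block, Gpnmb (3.30), Atp6v0d2 (2.19), Lgmn (0.97) and Ctsb (-0.60) passed, and Ctsd (0.21) and Ctsk (0.16) did not. Only B10.BR at 500 cGy had arrays on both slide 1 and slide 2, with 1 array on slide 2. Strain differences with this block, here and at 300 cGy, rest on that link. Against the 1 unirradiated BALB.K array with Y-linked signal, Ctsb (-0.34) did not pass and the other 5 did. Of 22 alternatives in all, the Ctsd call was lost with its direction kept in 8, beside the turned sign with spike-in scaling. At 300 cGy, the dose given to both strains, 5 members were higher in B10.BR and none lower, against 14.9% and 17.2% of all probes: Gpnmb by 4.11 (17.2-fold), Atp6v0d2 by 1.83, Cd68 by 0.75, Ctsd by 0.73 and Lgmn by 0.51. The arrays at that dose shared no slide between strains, and Y-linked signal was present on 3 of 3 B10.BR and 1 of 3 BALB.K arrays. With the slide as a fixed block Gpnmb (4.44) and Atp6v0d2 (2.73) passed and Cd68 (0.24), Ctsd (0.70) and Lgmn (0.62) did not. With the 1 BALB.K array that carried Y-linked signal, Cd68 (0.58) did not pass and Gpnmb (4.11) did; a lone array is there assumed to vary like those of the other groups.

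Placed in order, the 8 group means of Gpnmb ran from unirradiated BALB.K through unirradiated B10.BR to BALB.K at 300, 800 and 400 cGy and then to B10.BR at 900, 300 and 500 cGy. Neighbours in this order overlapped only between B10.BR at 900 and 300 cGy and between B10.BR at 300 and 500 cGy. The lowest mean was -6.94 ± 1.08 (SD, n = 3) and the highest 1.41 ± 0.21.

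Whether the change itself differed between strains was tested as an interaction. At 300 cGy 2 members passed, against 9.34% of all probes. The change of Ctsb was larger in B10.BR by 0.46 (limma, adjusted p = 0.0441) and that of Lgmn smaller by 0.56 (adjusted p = 0.0304). The second Ctsd probe also passed, with a change larger by 2.07 in B10.BR (adjusted p = 0.00489). Y-linked signal differed between the strains at 0 and 300 cGy, and its part in this value was not tested. For Gpnmb the difference was 1.13 ± 0.48 (95% interval 0.12 to 2.15, adjusted p = 0.154), which did not pass. At the highest dose, 900 against 800 cGy, the same 2 members passed, against 10.9% of all probes, with 0.44 for Ctsb (adjusted p = 0.0483) and -0.53 for Lgmn (adjusted p = 0.0344). Gpnmb differed there by 0.56 (95% interval -0.46 to 1.58, adjusted p = 0.508). With 1 of the 12 arrays left out at a time, the calls of Ctsb and Lgmn were lost in 7 and 5 of the 12 fits at 300 cGy and in 8 and 9 at the highest dose. The difference for Gpnmb rested on the unirradiated BALB.K arrays: at the highest dose it was -0.06 without the 1 such array that measured Gpnmb. With only the BALB.K arrays that carried Y-linked signal it was 2.38 at 300 cGy and 1.80 at the highest dose. That setting leaves 1 BALB.K array at 0 cGy, the same one that measured Gpnmb, and 1 at 300 cGy, so it is given as a value only. With the slide as a fixed block none of these member calls passed, with Ctsb at 0.46 and 0.58 and Lgmn at -0.36 and -0.14.

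The wider lysosomal pathway was read from lists that hold none of the members. Of all probes tested, 18.6%, 24.1% and 27.8% rose and passed at 300, 400 and 800 cGy in BALB.K. In B10.BR 17.4%, 20.3% and 24.3% did so at 300, 500 and 900 cGy. Counts of risers in the lists here and below are to be read beside these shares. No share is given for falls, so counts of falls are a description and set no list apart from other probes. In B10.BR more of all probes that passed fell than rose, at each dose. Of 42 other lysosomal hydrolases 30, 30 and 33 rose at 300, 400 and 800 cGy in BALB.K and 2, 1 and 5 fell. In B10.BR 24, 28 and 26 rose at 300, 500 and 900 cGy and 1, 4 and 3 fell. Their median log2 change was between 0.34 and 0.82, below that of the members. Acp2, a lysosomal acid phosphatase, rose by 1.1, 1.24 and 1.53 in BALB.K and by 1.32, 1.51 and 1.83 in B10.BR. Arsa, the arylsulfatase whose loss causes metachromatic leukodystrophy, rose by 2.38, 2.54 and 2.69 in BALB.K (SE 0.90), and in B10.BR its changes were 0.11, 0.73 and 0.73. Ctso, another cysteine cathepsin, went the other way, with changes of -0.39, -0.63 and -1.56 in BALB.K and -0.47, -0.77 and -1.31 in B10.BR. Idua, the iduronidase of mucopolysaccharide breakdown, passed only at 500 cGy in B10.BR, where it fell by 0.63.

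Of 22 other lysosomal membrane proteins 14, 15 and 14 rose in BALB.K and 11, 11 and 12 in B10.BR, with 1 or 2 lower in each comparison. Slc11a1, the phagosomal metal transporter also called Nramp1, rose by 0.98, 1.37 and 1.90 in BALB.K and by 1.62, 1.85 and 2.22 in B10.BR. Slc15a3, a transporter of peptides and histidine, rose by 1.34, 1.63 and 2.24 in BALB.K and by 1.55, 1.81 and 1.82 in B10.BR. Slc38a9, the arginine sensor of the lysosomal membrane, fell by 0.73 to 1.05 in the 6 comparisons, and Slc17a5, the sialic acid exporter, fell only at 500 cGy in B10.BR, by 0.60. Of 17 other V-ATPase subunits 6, 10 and 13 rose in BALB.K and 8, 12 and 11 in B10.BR, and 1 fell (Atp6v0a1, at 300 cGy in BALB.K, by 0.27). Tcirg1, the a3 subunit of osteoclasts and macrophages, rose by 0.81, 1.06 and 1.45 in BALB.K and by 0.65, 0.79 and 0.81 in B10.BR. Atp6v0a2, the a2 subunit, passed only at 800 cGy in BALB.K (2.35, SE 0.88), and Atp6v0e, a small membrane subunit, passed nowhere. The list's median was 0.24 to 0.47, against 2.42 to 3.33 for Atp6v0d2, or 0.72 to 2.12 for Atp6v0d2 with normexp background correction.

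Among 9 MiT/TFE factors and their regulators 4, 3 and 6 rose in BALB.K and 2, 4 and 5 in B10.BR. Some of these counts lay near the share of all probes, which was 17.4% at 300 cGy in B10.BR and 24.1% at 400 cGy in BALB.K. Mitf, the melanocyte and macrophage member of the family, rose by 1.23, 1.59 and 1.48 in BALB.K and by 0.82, 1.15 and 1.57 in B10.BR. Tfec, its macrophage relative, rose by 1.22, 1.52 and 1.45 and by 1.03, 1.53 and 1.81. Flcn, a negative regulator of TFE3, passed only at 800 cGy in BALB.K, at 0.45. Fnip2, its partner, fell at 300 and 400 cGy in BALB.K, by 0.59 and 0.51, and rose at 500 and 900 cGy in B10.BR, by 0.57 and 0.80. Among 4 inhibitors of cysteine proteases 2, 4 and 2 rose in BALB.K and 3, 3 and 2 in B10.BR, and none fell. Cstb, the cytosolic cystatin B, rose by 1.17 to 1.46 in the 6 comparisons. Cst7, which restrains cathepsins inside lysosomes, rose by 0.98, 0.74 and 0.34 in BALB.K and by 0.56 and 0.43 at 300 and 500 cGy in B10.BR, and stood at -0.05 at 900 cGy, which did not pass. Cst6, cystatin M, rose at 400 cGy in BALB.K (0.80) and at all 3 B10.BR doses (0.62, 0.66 and 0.95), and Cst3, cystatin C, only at 400 cGy in BALB.K (0.24). Of 3 genes for the Gpnmb paralog and binding partners, Cd44, the hyaluronan receptor, rose in all 6 comparisons, by 0.62 to 1.35. Pmel, the melanosomal paralog of Gpnmb, passed only at 400 cGy in BALB.K (2.28), and Sdc4, a syndecan, at 300 and 800 cGy in BALB.K (0.73 and 0.83).

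Since Ctsk, Atp6v0d2 and Gpnmb are also made by osteoclasts, other osteoclast genes were listed. Of 9 kept, 4 or 5 rose and 2 or 3 fell in each comparison. Mmp9, a gelatinase, rose by 1.05 to 2.33, and Tnfrsf11a, the receptor RANK, by 1.18 to 1.47. Ocstamp, needed for osteoclast fusion, fell by 0.68 to 1.75, and Car2, a carbonic anhydrase also abundant in erythroid cells, fell, with changes between -4.61 and -3.69. Of 13 genes known from lipid-laden macrophages 11 or 12 rose in each comparison, with medians of 1.13 to 1.51, close to those of the members. Fabp5, a fatty acid binding protein, rose by 1.42, 1.53 and 1.35 in BALB.K and by 2.19, 2.23 and 1.59 in B10.BR. Clec7a, the receptor Dectin-1, rose by 1.37 to 1.98, whereas Mmp12, macrophage elastase, passed only at 900 cGy in B10.BR, where it fell by 1.36. Cd36, a scavenger receptor for oxidised lipids, rose by 0.47 to 0.92 except at 300 cGy in BALB.K, where 0.17 did not pass.

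**Figure D5:**
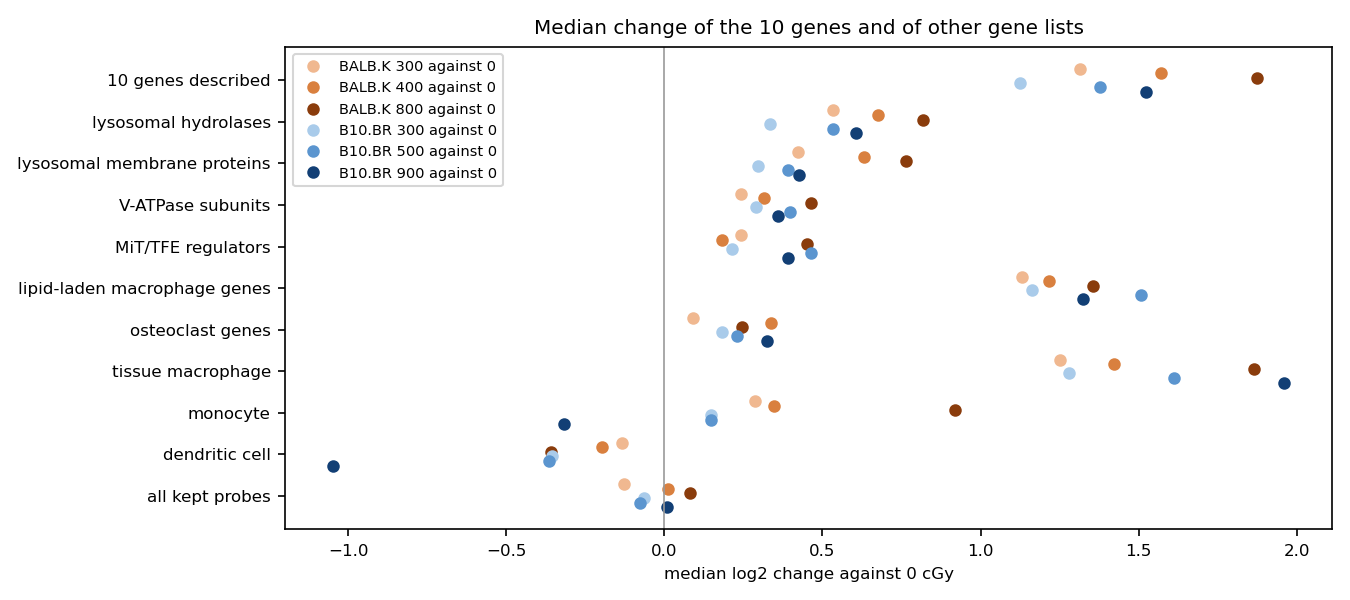
Median log2 change against 0 cGy (x axis) of the 10 members, of 9 gene lists and of all kept probes (rows), with 1 point for each dose of each strain (BALB.K in oranges, B10.BR in blues, darker for higher doses). The members' medians, 1.13 to 1.87, lie with those of the lipid-laden and tissue macrophage lists and above those of the hydrolase (0.34 to 0.82) and V-ATPase (0.24 to 0.47) lists; all probes lie near 0.

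Markers of cell types also shifted after irradiation, some lists upward like the members and others downward. All 18 markers of tissue macrophages were well above background on all 24 arrays. They rose in all 6 comparisons but for 1 marker at 800 cGy in BALB.K that did not pass, with medians of 1.25, 1.42 and 1.87 in BALB.K and 1.28, 1.61 and 1.96 in B10.BR. Their summed share of all signal was 0.161% to 0.185% in unirradiated BALB.K and 0.532% to 0.562% at 800 cGy, and 0.143% to 0.162% and 0.571% to 0.622% in B10.BR at 0 and 900 cGy. Of the most abundant markers, Hmox1, the heme oxygenase of red pulp macrophages, rose by 1.27 to 2.15, and Csf1r, the receptor for macrophage colony-stimulating factor, by 0.37 to 0.93. Of 7 B cell markers 6 or 7 fell in each comparison, and their summed share went from 0.108% to 0.119% in unirradiated BALB.K to 0.0183% to 0.0197% at 800 cGy. In B10.BR it went from 0.123% to 0.130% to 0.0237% to 0.0264% at 900 cGy. Of 7 T cell markers 5 or 6 fell and at most 1 rose. Of 7 erythroid markers 6 or 7 fell, from 0.173% to 0.206% down to 0.0172% to 0.0197% in BALB.K and from 0.0474% to 0.0695% down to 0.00356% to 0.00397% in B10.BR at the highest doses. Of 9 markers of stroma and endothelium 8 or 9 rose, to 0.114% to 0.127% at 800 cGy and 0.133% to 0.137% at 900 cGy, from 0.032% to 0.0353% and 0.0349% to 0.0409%. Markers of other cell types rose as well. All 4 plasma cell markers rose in every comparison, with medians of 0.44 to 0.84. Of 6 adipocyte markers 4, 6 and 6 rose in BALB.K and 1, 5 and 5 in B10.BR, with medians of 1.44 to 2.95, and of 5 megakaryocyte markers 1, 3 and 5 rose in BALB.K and all 5 at each B10.BR dose. Of 8 neutrophil markers 1 to 6 rose, and 2 fell at 900 cGy in B10.BR. Of 8 dendritic cell markers at most 1 rose and up to 6 fell. Monocyte markers were mixed: of 4 kept, 0 to 3 rose and 1 or 2 fell, with medians of -0.32 to 0.92. Of 6 NK cell markers 1 to 4 rose and up to 4 fell. The part of these shifts in the members' changes was not tested.

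Across the 24 arrays, which share slides and groups, the 45 pairs of members had Pearson correlations from 0.581 to 0.978, with a median of 0.857. Ctsk and Lamp1 were the closest pair. Gpnmb was closest to Atp6v0d2, at 0.956, and farthest from Ctsb, at 0.622, and Ctsl had the lowest median, 0.705. Over all genes the patterns most like that of Gpnmb were those of Hacd4 (0.965), 5830433I10Rik (0.963), Rin2 (0.96), Zc2hc1a (0.96) and Stmn2 (0.957), and 0.804% of probes exceeded 0.9. Those most like Ctsd were Lgals3 (0.987), Cd63 (0.985), Tmem86a (0.981), Cstb (0.98) and Prxl2b (0.979), with 2.56% of probes above 0.9. Those most like Lamp1 were Ehd4 (0.977), Pld3 (0.977), Hmox1 (0.975), Cfap126 (0.973) and Akr1b8 (0.972), with 2.99% above 0.9. These correlations describe the arrays as a whole, where irradiated and unirradiated groups stand apart, and carry no test.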

How the data were processed

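RNA pools from 24 spleen samples were read on one-colour Agilent arrays. The authors' deposited scanner files hold spot intensity on a linear scale, extracted with Agilent Feature Extraction 10.5.1.1 per the submitters' processing notes, with background subtracted per the file headers. The authors' deposited matrix of log2 values, centred per probe, served as an alternative within a strain; its column medians lay between -0.12 and 0.18, and its baseline for B10.BR is unknown. Here log2 intensity minus the array's 75th percentile was averaged per probe, without control and outlier spots. Probes well above background on all 3 arrays of at least 1 group were kept. A linear model with a term for each of the 8 groups used the whole set of arrays (limma 3.58.1, R 4.3.3), two-sided, with Benjamini-Hochberg adjustment in each of 14 comparisons. The fit was tested on simulated data. A gene's brightest probe stands for it. Probe names were updated through RefSeq, 26413 of 55681 by accession, 3859 by symbol and 735 by synonym; 24674 kept the file's name. In each list the genes named were those with the largest and the smallest changes over the comparisons with 0 cGy. Motif matches were counted in RefSeq promoters of GRCm38.p6. Replicate numbers pair no samples in the labels, and no 2 arrays were identical. Scaling, background correction, filters, fit, slide and left-out arrays were varied. The members and lists were chosen with earlier results of these data known.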

Additional observations from a re-analysis of the deposited data

Results flagged for a closer look

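The changes of 2 members and of a second probe differed between the strains by the test of the difference itself (limma). At 300 cGy the log2 change of Ctsb was larger in B10.BR by 0.46, that of Lgmn smaller (-0.56) and that of the second Ctsd probe larger by 2.07. At the highest dose, 900 cGy in B10.BR against 800 cGy in BALB.K, the difference was 0.44 for Ctsb and -0.53 for Lgmn. The changes of Ctsb and Lgmn were increases in both strains, while that of the second Ctsd probe at 300 cGy did not pass in BALB.K (0.47). At 300 cGy the calls of Ctsb and Lgmn were lost in 15 and 10 of 28 alternatives, and at the highest dose in 17 and 15. The second Ctsd probe was not followed by itself in the alternatives, so its call has no such check. With the slide as a fixed block or spike-in scaling 0 members passed in either comparison. No group had enough arrays for a test of single outlying arrays.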

How the results depend on the processing

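Gpnmb was higher and passed against 0 cGy under every alternative setting run that kept its probe and in every fit with 1 array left out. Over the alternative settings, left-out arrays aside, its change lay between 1.34 and 4.62, 2.08 and 5.70 and 1.51 and 4.70 at the 3 BALB.K doses. At the B10.BR doses it lay between 4.21 and 5.48, 4.43 and 5.71 and 3.97 and 5.30. With 1 array left out it reached 4.95 at 800 cGy in BALB.K and stayed within these ranges at the other doses. Of the other members, 8 kept direction and call in every alternative against 0 cGy, and Ctsl lost its call in 27 of 137 and gained 1. The strictest filter on dim probes dropped 2 members, Gpnmb and Atp6v0d2. The size of the Gpnmb and Atp6v0d2 changes in BALB.K is limited by signals near background in the unirradiated group.

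With normexp background correction the Gpnmb steps passed at 0.74 (400 against 300 cGy) and -0.57 (800 against 400 cGy) in BALB.K, and its strain differences in change at 2.87 (300 cGy) and 2.46 (highest dose). They were 2.38 and 1.80 with only the BALB.K arrays that carried Y-linked signal, which leaves 1 array at 0 and 1 at 300 cGy, each assumed to vary like the other groups. The step to 400 cGy passed at 1.08 with only the arrays that did not carry it. Without the first unirradiated BALB.K array the difference at the highest dose was -0.060, against up to 0.90 with another array left out. With spike-in scaling the strain difference at 0 cGy was -0.42 for Ctsd and -0.39 for Ctsk.

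The count of members called moved as follows. From 500 to 900 cGy in B10.BR 1 became 0 with spike-in scaling, no filter, the strictest filter, the mean of a gene's probes, only the groups compared, the slide as a random block or the exocrine share as a covariate, and 0 to 0 with 1 array left out. From 300 to 500 cGy in B10.BR 0 became 1 with normexp, the strictest filter, an intensity trend or the slide as a fixed block, and 0 to 1 with 1 array left out. From 300 to 400 cGy in BALB.K 0 became 1 with normexp or only arrays without Y-linked signal. From 400 to 800 cGy 4 became 2 with spike-in scaling or the deposited matrix, 1 with only arrays with Y-linked signal, and 2 to 3 with 1 array left out. Between strains at 300 cGy 5 became 3 with the strictest filter or only the groups compared and 2 with spike-in scaling or the slide as a fixed block. For the difference in change at 300 cGy 2 became 1 with median scaling, no filter, the slide as a random block, the exocrine covariate or only arrays with Y-linked signal, 0 with spike-in scaling, only the groups compared or the slide as a fixed block, 5 with normexp, and 0 to 4 with 1 array left out. At the highest dose 2 became 1 with only the groups compared and 0 with median or spike-in scaling, no filter, either slide block or the exocrine covariate, and 0 to 2 with 1 array left out. The cause was not tested.

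The replicate number as a block (replicate block) changed no call of any member: Gpnmb's changes were 4.0, 4.97 and 4.33 in BALB.K and 5.13, 5.38 and 4.89 in B10.BR. All 3 same-numbered pairs had residual correlations over 0.1 between B10.BR at 900 and 500 cGy (0.11 to 0.218) and between the strains at 300 cGy (0.167 to 0.318), and in no other comparison, so the numbers are not treated as pairs. With spike-in scaling the share of calls that were higher went from 50.1% to 68.4% and 78.2% at 400 and 800 cGy in BALB.K and from 45.6%, 44.6% and 47.8% to 87.2%, 79.6% and 80.9% in B10.BR. With median scaling it went from 43.3% to 61.1% at 300 cGy in BALB.K.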
